A study of Homo sapiens with 8 samples.

Results

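The genes MYADM, PDZK1, SPOPL, SFXN1, PCLO, PRMT2, C6orf168 (now named FAXC), C11orf24 and TMEM18 were examined in neuroblastoma cells carrying an shRNA against TRPM7. They were selected on measured values of these same arrays, from among the largest decreases that 2 cell lines shared after TRPM7 shRNA, with known genes of epithelial-mesenchymal transition set aside. They are 9 of the 31426 gene symbols on the array and are measured by 18 of its 47322 probes. Because the choice used the contrast of TRPM7 shRNA with control in both lines, that contrast is described here for the 9 genes and carries no test.

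The data came from 8 Illumina HumanHT-12 v4 bead arrays, with 2 arrays in each of 4 groups. SH-SY5Y cells are a neuroblastic and SH-EP2 cells an epithelial-like line, both derived from the SK-N-SH neuroblastoma line. Cells of each line had been stably transduced by lentivirus with a TRPM7 shRNA or, as control, with a scrambled shRNA, and had been selected with puromycin. On the arrays 1 TRPM7 shRNA was used, so that an effect of lower TRPM7 and an effect of this shRNA on other transcripts cannot be told apart. The labels number the replicates without saying whether they are separate cultures, so that p-values measure the spread between these arrays, which may be technical.

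TRPM7 is an ion channel for calcium and magnesium that carries a kinase domain at its end, and it is known for its part in adhesion and actomyosin contractility. An shRNA is processed in the cell into a short guide that directs the silencing complex to transcripts with a matching sequence. The 9 genes belong to no common pathway: they code for a membrane protein of cholesterol-rich domains (MYADM), scaffolds (PDZK1, PCLO), a ubiquitin ligase adaptor (SPOPL), a mitochondrial serine carrier (SFXN1), an arginine methyltransferase (PRMT2) and 3 membrane proteins whose roles are less well known.

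The promoter sequences of the 9 genes were searched for 6 motifs, because the genes were low together, and the motifs were chosen with the results known. RefSeq (GRCh38.p14) gave 15 windows for the 9 genes, each from 250 bases before to 50 bases after a transcription start. The CArG box, bound by serum response factor, was found in 454 of 35116 windows (1.29%) and in 2 windows of the 9 genes. Both are shown with their box in capitals, since this was the rarest motif of the search. A link between the box and the decreases was not tested. The MYADM box lies at positions 29 to 38 after a start, within chr19:53869409-53869438 on the plus strand, and the SPOPL box at positions -213 to -204, within chr2:138501547-138501576 on the plus strand.
MYADM: gactcgaagcCCTTATAAGGcgcggagaca
SPOPL: ttacgcctggCCAAATAAGGgtcagactaa

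The E-box CACCTG, to which SNAI2 and related repressors can bind, was found in 20.6% of all windows and in 5 of the 15, which belong to 3 genes, PDZK1, PCLO and C6orf168. The 5 include 2 pairs of overlapping windows, of PDZK1 and of C6orf168, that hold the same matches. The PCLO match, shown with the E-box in capitals, lies 94 to 89 bases before the start, within chr7:83162963-83162988 on the minus strand.
PCLO: ccgcgggcatCACCTGttccgagagg

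The GC box GGGCGG was found in 45% of all windows and in 12 of the 15, from 8 genes. The 15 windows had a GC content of 50.3% to 74.7% against a median of 58.7% over all windows. Letters of the AP-1 motif TGANTCA (7.71% of all windows), of CCAAT (34.6%) and of TGATGNAA (3.62%) were found in 0 of the 15. Both strands were searched, and a CArG box can contain CCAAT, although neither one shown does. A match is a description of letters and not of a bound site.

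A probe was called detected on an array where its detection p-value, as deposited, was under 0.05. Values below are log2 signals after RMA background correction and quantile normalization over the 8 arrays, and a difference is the mean of TRPM7 shRNA minus the mean of control, with the standard error (SE) of a limma fit of all 4 groups. Between 19331 and 20904 probes were detected per array, and median deposited signals ranged from 104.7 to 119.9. TRPM7 itself has 1 probe, which was detected on none of the 8 arrays (detection p from 0.0753 to 0.201), so that its knockdown cannot be read from these data. The lines matched their labels by most markers: 9 of 10 noradrenergic genes were higher in SH-SY5Y control cells and 9 of 10 mesenchymal genes in SH-EP2 control cells (limma, adjusted p under 0.05), with median levels of 11.02 against 2.77 and of 6.0 against 11.74. The remaining mesenchymal gene passed in the other direction, higher in SH-SY5Y control cells.

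Of the 18 probes, 13 were detected on all 4 control arrays, 11 on all 8 arrays, and 1 on none. Detection in the controls favours probes that are lower after TRPM7 shRNA, so the 13 are no test of direction. All 13 were lower in both lines, with normalized TRPM7 shRNA arrays that did not overlap the control arrays. Over all 47322 probes, 5.31% had this pattern, although for the 9 genes the choice itself set it. In the deposited signals, before any normalization, 8 of the 13 did not overlap in either line. The choice of the genes bears on this count too, and its share over all probes was not taken, so nothing is read from it. The differences of the 13 ranged from -2.77 to -0.44 in SH-SY5Y cells, with a median of -1.35, and from -2.41 to -0.36 in SH-EP2 cells, with a median of -1.38. The median of all 15183 probes detected on the 4 control arrays was 0.01 in each line.

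**Figure D1:**
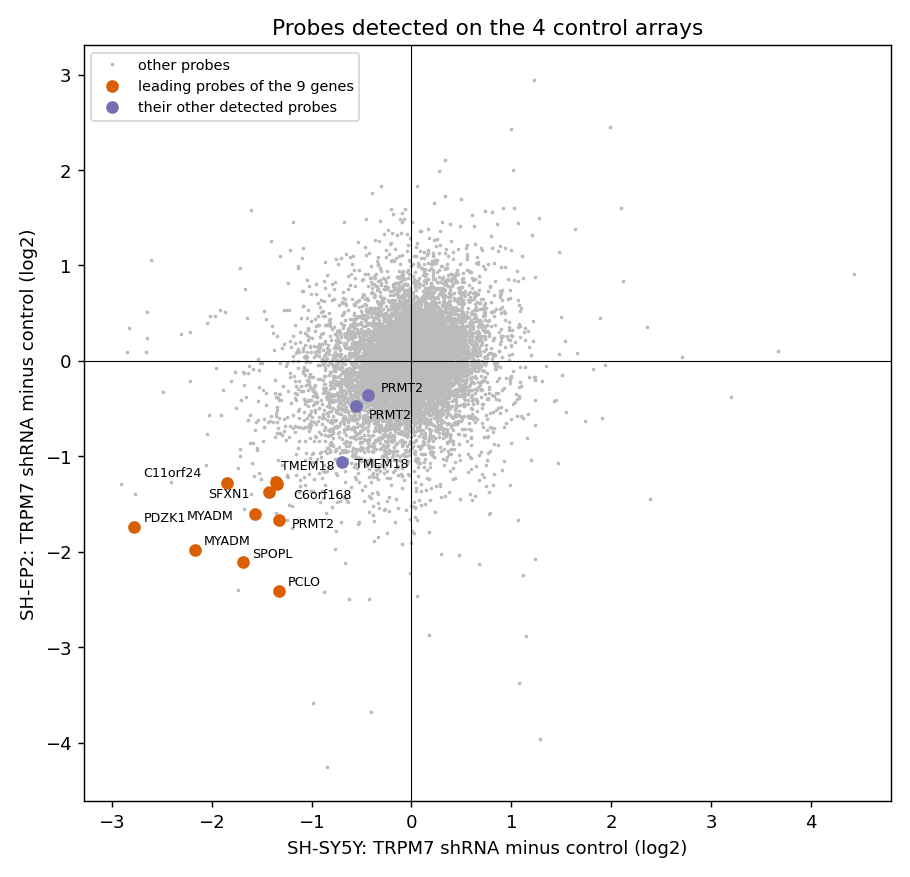
Difference between TRPM7 shRNA and control (log2) in SH-SY5Y cells (x axis) and in SH-EP2 cells (y axis) for the 15183 probes detected on all 4 control arrays. The 10 leading probes of the 9 genes (orange) lie in the lower left, from -2.77 to -1.32 on the x axis and from -2.41 to -1.27 on the y axis, while 3 further probes of PRMT2 and TMEM18 (purple) lie nearer to 0.

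When probes were ranked by the smaller of their decreases in the 2 lines, the 9 genes held 10 of the first 17 places. The other 7 were PTGS1 at rank 3, LOC100133627 at rank 6, 2 probes of SNAI2 at ranks 7 and 16, LOC730243 at rank 8, CDGAP at rank 10 and DAND5 at rank 13. SNAI2 was set aside as a gene of epithelial-mesenchymal transition, while this ranking does not account for leaving out the others. TMEM18, the last of the 9 genes at rank 17, differed by -1.35 and -1.27 in SH-SY5Y and SH-EP2 cells. Just inside it were C6orf168 (-1.35 and -1.29), C11orf24 (-1.85 and -1.28) and a SNAI2 probe (-2.40 and -1.27). Just outside were LOC401650 (-1.24 and -1.66), PLEKHA7 (-1.51 and -1.24) and MXRA7 (-1.23 and -1.51), so that no step in size separated the last of the 9 from the next probes.

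With limma and Benjamini-Hochberg adjustment over all probes, 617 probes (1.3%) were lower and 386 (0.816%) higher in TRPM7 shRNA SH-SY5Y cells at an adjusted p under 0.05. In SH-EP2 cells 733 (1.55%) were lower and 700 (1.48%) higher, and 157 (0.332%) were lower in both lines. Under median scaling in place of quantile normalization the split was 284 lower and 553 higher in SH-SY5Y cells, with the median of all probes moved by 0.09. Of the 13 detected probes of the 9 genes, 10 were among the 157, 1 passed in 1 line, and 2 passed in neither. Nothing is read from these counts, since the genes were chosen from the same contrast.

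MYADM, a membrane-spanning protein of the MARVEL family that is linked to cell spreading and Rac1 at the plasma membrane, was the brightest of the 9 genes. By its brightest probe (ILMN_2308849), the SH-SY5Y control arrays read 10.53 and 10.55, and the TRPM7 shRNA arrays 8.98 and 8.97. In SH-EP2 cells the control arrays read 11.74 and 11.66, and the TRPM7 shRNA arrays 10.09 and 10.10. All TRPM7 shRNA arrays were below the controls of their line, and the replicates of each group were close together. The difference was -1.56 ± 0.08 (SE, n = 2 against 2) in SH-SY5Y and -1.61 ± 0.08 in SH-EP2 cells, or 33.9% and 32.8% of the control level.

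A second MYADM probe (ILMN_2350574), at rank 1, read 6.72 and 7.01 in SH-SY5Y control cells and 4.13 and 5.27 with TRPM7 shRNA. Its SH-EP2 arrays read 8.36 and 8.01 in control and 6.08 and 6.33 in TRPM7 shRNA cells. The differences were -2.17 ± 0.27 and -1.98 ± 0.27, with the widest spread between the TRPM7 shRNA SH-SY5Y arrays. A further MYADM probe (ILMN_1675345) was detected on 1 of the 8 arrays and differed by -0.04 ± 0.44 and 0.38 ± 0.44, so that it carries little information on the gene.

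PDZK1 is a scaffold with PDZ domains that anchors transporters and the lipoprotein receptor SCARB1 at the cell membrane. Its brightest probe (ILMN_1708341) read 5.36 and 5.0 on the SH-SY5Y control arrays and 2.47 and 2.34 on the TRPM7 shRNA arrays. In SH-EP2 cells it read 5.30 and 5.06 in control and 2.88 and 4.0 with TRPM7 shRNA. All 4 control arrays detected it, against 0 of 2 TRPM7 shRNA arrays in SH-SY5Y and 1 of 2 in SH-EP2 cells. The fitted differences were -2.77 ± 0.41 in SH-SY5Y and -1.74 ± 0.41 in SH-EP2 cells. Set against the dimmest detected signals, PDZK1 was at least 4.45-fold lower with TRPM7 shRNA in SH-SY5Y cells after the RMA background correction, a bound that does not hold without the correction, where the difference was -0.42.

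PDZK1 lay close to the background throughout, with deposited signals of 156.0 and 129.3 in SH-SY5Y control and 114.1 and 112.6 in TRPM7 shRNA cells. The background of the arrays, as the RMA model estimated it, was 98.3 to 111.1 with an SD of 6.71 to 8.05. A second probe (ILMN_1694535) was detected on 1 array and differed by -1.16 ± 0.44 and -1.08 ± 0.44, with no overlap between arrays in either line. The third (ILMN_1656084), detected on no array, differed by -0.35 ± 0.32 and -0.25 ± 0.32, and its arrays overlapped in both lines.

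PCLO codes for piccolo, a very large scaffold of the presynaptic active zone, where synaptic vesicles are released. Its brightest probe (ILMN_3230160) read 7.14 and 7.41 in SH-EP2 control cells and 5.01 and 4.71 with TRPM7 shRNA. The SH-SY5Y arrays read 4.06 and 4.72 in control and 2.79 and 3.33 in TRPM7 shRNA cells. The difference was -2.41 ± 0.31 in SH-EP2 cells, the largest of the 13 probes in that line, with 18.8% of the control level remaining. In SH-SY5Y cells it was -1.33 ± 0.31, where 1 of the 2 TRPM7 shRNA arrays detected the probe and the deposited signals overlapped (127.8 and 124.5 against 117.7 and 124.7). The other PCLO probe (ILMN_3234654) was detected on 1 array and differed by 0.02 ± 0.45 in SH-SY5Y and -0.63 ± 0.45 in SH-EP2 cells.

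**Figure D2:**
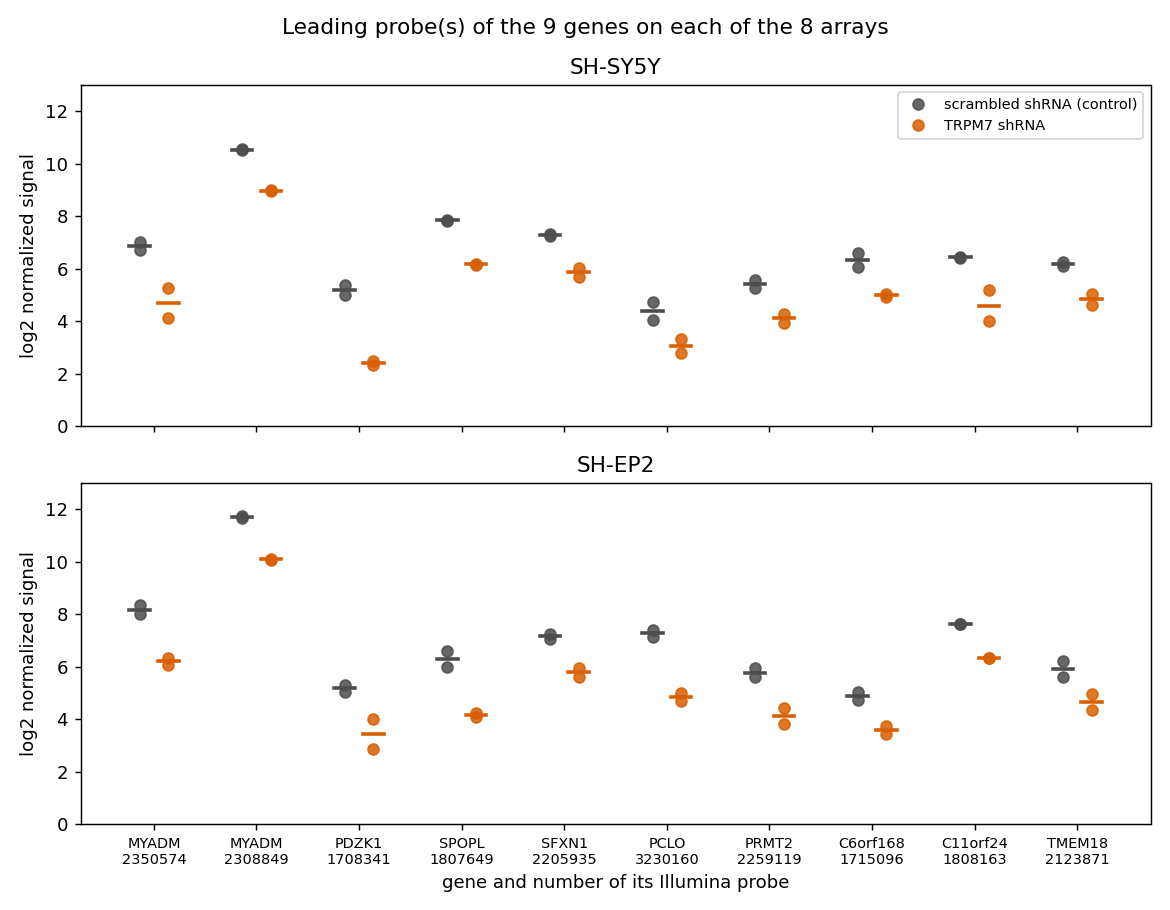
Log2 normalized signals (y axis) of the 10 leading probes of the 9 genes on each of the 8 arrays, with SH-SY5Y cells in the upper and SH-EP2 cells in the lower panel. Points are single arrays and bars the means of 2 arrays. Every TRPM7 shRNA point lies below both control points of its line and probe, and MYADM is the brightest, from 8.97 to 11.74.

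SPOPL, a relative of SPOP that presents substrates to cullin 3 ubiquitin ligases, was read by its brightest probe (ILMN_1807649) at 7.83 and 7.87 in SH-SY5Y control cells and at 6.14 and 6.18 with TRPM7 shRNA. The SH-EP2 arrays read 6.59 and 5.99 in control and 4.26 and 4.09 in TRPM7 shRNA cells. The differences were -1.69 ± 0.21 and -2.11 ± 0.21, and the deposited signals did not overlap in either line. Its second probe (ILMN_2095506) also lay lower in both lines, by -1.45 ± 0.38 and -0.90 ± 0.38, but was detected on 1 of 4 arrays in SH-EP2 cells.

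SFXN1, the carrier that brings serine into mitochondria for one-carbon metabolism, has 1 probe (ILMN_2205935), which all 8 arrays detected. In SH-SY5Y cells it read 7.31 and 7.24 in control and 5.68 and 6.03 with TRPM7 shRNA. The SH-EP2 arrays read 7.25 and 7.08 in control and 5.95 and 5.63 in TRPM7 shRNA cells. The lines had nearly the same levels and nearly the same differences, -1.42 ± 0.19 and -1.38 ± 0.19, or 37.3% and 38.5% of control.

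PRMT2 is a protein arginine methyltransferase that is known as a coactivator of nuclear receptors. Its 3 probes were all detected on the 4 control arrays and were all lower in both lines, but they disagreed in size. The probe at rank 12 (ILMN_2259119) read 5.58 and 5.27 in SH-SY5Y control against 4.27 and 3.94 in TRPM7 shRNA cells, a difference of -1.32 ± 0.30. In SH-EP2 cells the same probe read 5.61 and 5.96 against 3.81 and 4.42, a difference of -1.67 ± 0.30.

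The brightest PRMT2 probe (ILMN_1675038), at rank 396, read 8.11 and 7.94 against 7.64 and 7.31 in SH-SY5Y cells, and 8.69 and 8.57 against 8.31 and 8.01 in SH-EP2 cells. Its differences were -0.56 ± 0.14 and -0.47 ± 0.14, or 68.0% and 72.1% of control. The third probe (ILMN_2393544), at rank 699, differed by -0.44 ± 0.14 and -0.36 ± 0.14. In the deposited signals of SH-SY5Y cells, control and TRPM7 shRNA arrays overlapped for all 3 probes. PRMT2 therefore belonged to the largest shared decreases by its dimmest probe alone, and which transcripts each probe reads was not tested.

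Among the less well known genes, C6orf168, a relative of the metaxins named after the fly gene failed axon connections, has 1 probe (ILMN_1715096). It read 6.07 and 6.60 in SH-SY5Y control and 4.93 and 5.05 in TRPM7 shRNA cells. In SH-EP2 cells it read 4.72 and 5.05 in control and 3.45 and 3.75 with TRPM7 shRNA. The differences were -1.35 ± 0.29 and -1.29 ± 0.29, and all 8 arrays detected it, at deposited signals from 127.4 to 184.7.

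C11orf24, a membrane protein of the Golgi and of vesicle traffic, has 1 probe (ILMN_1808163). In SH-EP2 cells it read 7.64 and 7.62 in control and 6.35 on both TRPM7 shRNA arrays, a difference of -1.28 ± 0.26. The SH-SY5Y control arrays read 6.46 and 6.42 and the TRPM7 shRNA arrays 5.17 and 4.01. The difference there was -1.85 ± 0.26, with TRPM7 shRNA arrays that lay further apart than in any other group of this gene, and it was -1.28 without TRPM7 shRNA replicate 2 and -2.41 without replicate 1.

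TMEM18, a protein of the inner nuclear membrane that is expressed in many tissues, has 2 probes. The brighter one (ILMN_2123871) read 6.12 and 6.27 in SH-SY5Y control against 5.04 and 4.63 in TRPM7 shRNA cells, and 5.60 and 6.24 against 4.34 and 4.96 in SH-EP2 cells. It differed by -1.35 ± 0.28 and -1.27 ± 0.28. The other probe (ILMN_1772700), at rank 150, differed by -0.69 ± 0.28 in SH-SY5Y and -1.06 ± 0.28 in SH-EP2 cells, so that both probes pointed the same way and the decreases of the second were the smaller.

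**Figure D3:**
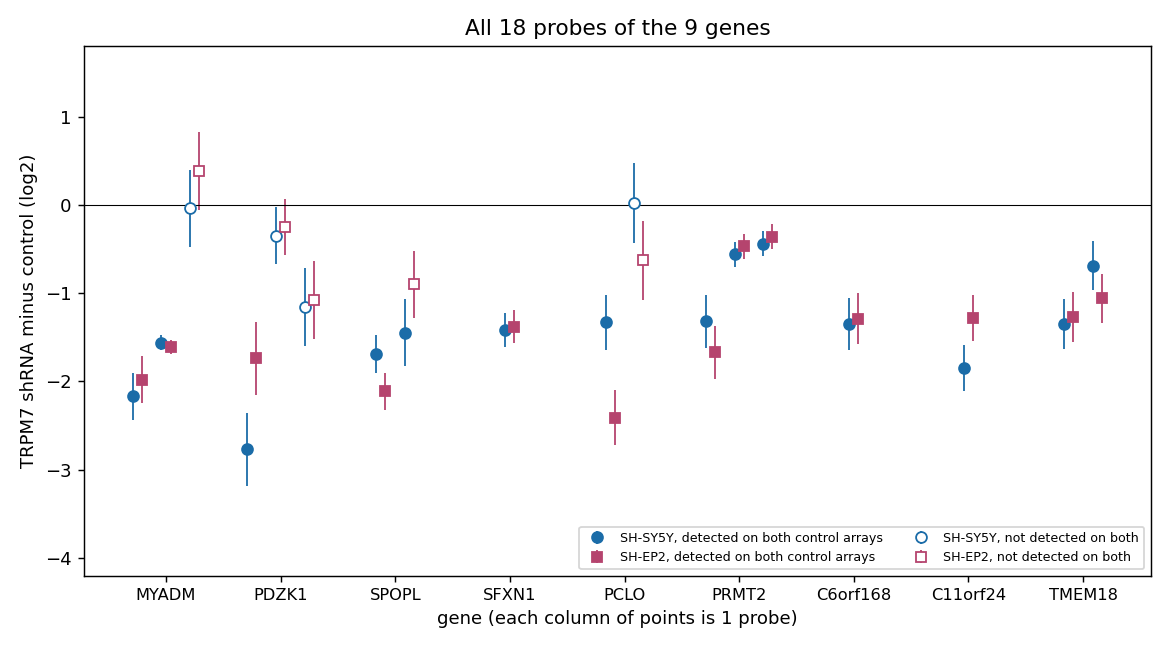
Difference between TRPM7 shRNA and control (log2, y axis) with its SE (bars) for all 18 probes of the 9 genes, in SH-SY5Y (circles) and SH-EP2 cells (squares). Filled symbols mark probes that both control arrays of the line detected. Filled symbols all lie below 0, PRMT2 spreads from -1.67 to -0.36, and the open symbols of MYADM and PCLO reach 0.38 and 0.02.

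The size of these differences rested on the background correction, which matters most for dim probes. Without any background correction, the brightest MYADM probe still differed by -1.38 in SH-SY5Y and -1.51 in SH-EP2 cells. For PDZK1 the difference without correction was -0.42 in SH-SY5Y and -0.29 in SH-EP2 cells, for PCLO -0.18 and -0.91, and for the PRMT2 probe at rank 12 -0.26 and -0.37. No difference of the 13 probes changed sign under any of the alternatives that were run. The order of the 9 genes by size is therefore an order under this correction. Among the 10 leading probes, the brightest MYADM probe moved least.

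**Figure D4:**
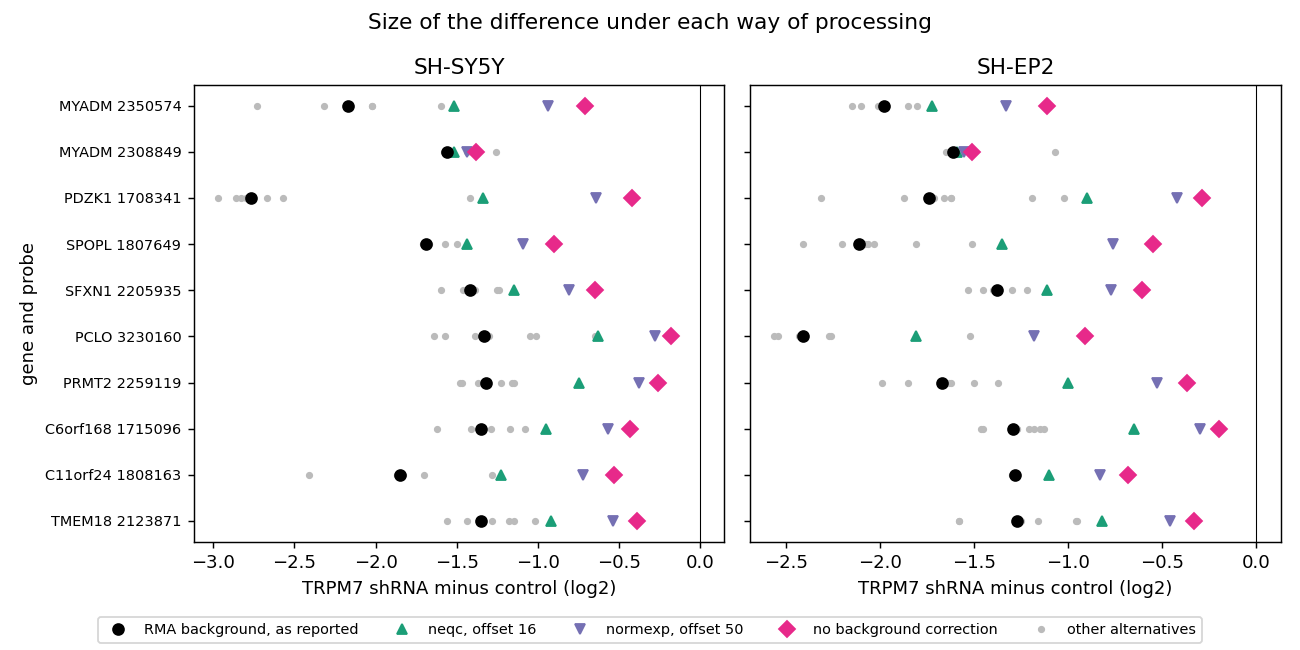
Difference between TRPM7 shRNA and control (log2, x axis) of the 10 leading probes (rows) in SH-SY5Y (left) and SH-EP2 cells (right) under each way of processing. Black points are the values as reported, coloured symbols other background corrections and grey points the remaining alternatives, including single arrays left out. All points lie below 0, and those without background correction lie nearest to 0 for most probes, for example -0.18 for PCLO and -0.20 for C6orf168.

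A comparison that the choice of the genes did not use is that of the 2 control groups, which asks how the lines differ in the baseline levels of these genes. Over all probes 26.2% differed between SH-EP2 and SH-SY5Y control cells (limma, adjusted p under 0.05), and of the 9 genes, each by its brightest probe, 6 did. These 9 probes were detected on the 4 control arrays, and of all 15183 such probes 59% differed, so that 6 of 9 is close to the background. MYADM, PCLO, PRMT2 and C11orf24 were higher in SH-EP2 control cells, and SPOPL and C6orf168 were higher in SH-SY5Y control cells. The largest difference was in PCLO, the active zone scaffold, which was 2.89 ± 0.31 higher on the log2 scale (limma, adjusted p = 2.44e-07), or 7.40-fold, in the epithelial-like SH-EP2 cells, and the control arrays did not overlap. The size of this difference depended on the processing, with 1.00 as the smallest value among the alternatives. Deposited signals were 259.6 and 267.2 in SH-EP2 control and 127.8 and 124.5 in SH-SY5Y control cells. The other PCLO probe (ILMN_3234654) did not pass, with 0.87 ± 0.45.

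MYADM was higher in SH-EP2 cells by 1.16 ± 0.08 (limma, adjusted p = 5.8e-10), C11orf24 by 1.19 ± 0.26 (adjusted p = 0.00129) and PRMT2 by 0.60 ± 0.14 (adjusted p = 0.00281). MYADM and C11orf24 did not pass under 1 of 17 alternatives each, and PRMT2 under 2. The smallest MYADM difference among the alternatives was 0.48. The MYADM probe ILMN_2350574 was higher too, with 1.32 ± 0.27 (adjusted p = 0.00055). ILMN_1675345, detected on 1 of the 8 arrays, did not pass, with -1.05 ± 0.44. The other PRMT2 probes did not pass, with 0.36 ± 0.30 and 0.16 ± 0.14. SPOPL was lower in SH-EP2 cells, with -1.56 ± 0.21 (adjusted p = 6.58e-06), and its second probe was lower too, with -3.18 ± 0.38 (adjusted p = 1.03e-06). C6orf168 differed by -1.45 ± 0.29 (adjusted p = 0.000481). PDZK1, SFXN1 and TMEM18 did not pass, with 0.00 ± 0.41, -0.11 ± 0.19 and -0.27 ± 0.28 and adjusted p-values of 0.998, 0.766 and 0.588. The study's methods give the lines different media, while the labels give the same medium for all samples, so that a part of the medium in these differences was not tested.

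The genes that share a family or a process with the 9 were then examined with limma, in lists that hold none of the 9. The lists hold 151 genes with a probe, of which 27 were detected on no array. In SH-SY5Y cells 4 (2.65%) were lower and 2 (1.32%) higher at an adjusted p under 0.05, and in SH-EP2 cells 7 (4.64%) were lower and 4 (2.65%) higher. These shares stand beside 1.3% and 0.816% of all probes in SH-SY5Y cells and 1.55% and 1.48% in SH-EP2 cells, in which undetected probes count. The medians of the 151 genes were 0.00 and 0.02.

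Serine and one-carbon metabolism, the process of SFXN1, held the most calls. Of its 23 genes, 1 was lower in SH-SY5Y cells, and 4 were lower and 1 higher in SH-EP2 cells, with list medians of 0.14 and 0.15. PHGDH, which catalyses the entry step of serine synthesis, read 11.67 and 11.85 in SH-SY5Y control and 10.48 and 10.57 in TRPM7 shRNA cells, and 12.84 and 12.72 against 11.55 and 11.57 in SH-EP2 cells. It fell in both lines, by 1.24 ± 0.08 (limma, adjusted p = 1.15e-08) and 1.22 ± 0.08 (adjusted p = 1.01e-08), to 42.4% and 43.0% of control.

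PSAT1, which acts after PHGDH in the same pathway, read 10.12 on both SH-EP2 control arrays and 8.85 and 8.80 with TRPM7 shRNA, a decrease of 1.30 ± 0.10 (limma, adjusted p = 8.42e-08). In SH-SY5Y cells it read 9.27 and 9.24 against 9.10 and 8.99, a difference of -0.21 ± 0.10 that did not pass. The difference between the lines was itself past the threshold (-1.09 ± 0.14, adjusted p = 0.000111). Among the alternatives the smallest PSAT1 difference in SH-EP2 cells was -0.61, and the smallest difference between the lines was -0.52. MTHFD2, a mitochondrial enzyme of folate metabolism, fell by 0.62 ± 0.10 in SH-EP2 cells (adjusted p = 0.00095), and this also differed between the lines (-0.77 ± 0.14, adjusted p = 0.00523). For MTHFD2 the smallest values among the alternatives were -0.23 in SH-EP2 cells and -0.39 between the lines.

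MTHFD1L, the mitochondrial enzyme that releases formate, fell by 0.55 ± 0.13 in SH-EP2 cells (limma, adjusted p = 0.0203). GLDC, of the glycine cleavage system, rose in SH-EP2 cells (adjusted p = 0.00153) over control arrays that did not detect it, at least 1.87-fold after the RMA background correction but with a difference of 0.16 without it. The relatives SFXN2, SFXN3, SFXN4 and SFXN5 passed in neither line, with differences from -1.07 for SFXN3 to 0.98 for SFXN5 in SH-SY5Y cells. PSPH, SHMT1 and SHMT2, which complete serine synthesis and turn serine into glycine, did not pass either, with -0.41 ± 0.12 the largest difference among them, for PSPH in SH-EP2 cells.

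**Figure D5:**
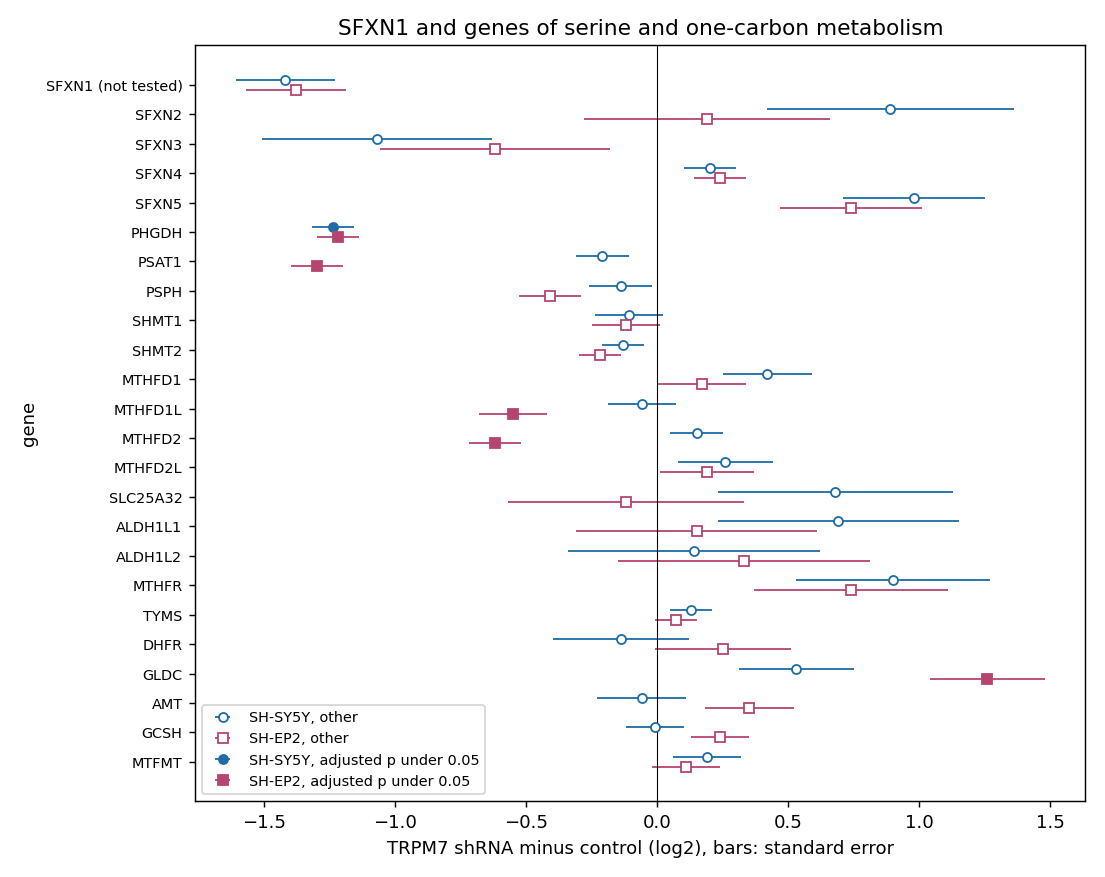
Difference between TRPM7 shRNA and control (log2, x axis) with its SE (bars) for SFXN1 and 23 genes of serine and one-carbon metabolism (rows), in SH-SY5Y (circles) and SH-EP2 cells (squares). Filled symbols passed an adjusted p under 0.05, and SFXN1 was not tested. PHGDH is filled in both lines near -1.2, and PSAT1 is filled at -1.30 in SH-EP2 cells and open at -0.21 in SH-SY5Y cells.

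Of 20 cullin 3 ligase genes and BTB adaptors, the setting of SPOPL, 2 fell and 1 rose in SH-EP2 cells. RHOBTB1 fell by 1.42 ± 0.25 (limma, adjusted p = 0.00191) and RHOBTB3 by 0.63 ± 0.08 (adjusted p = 6.97e-05), while KLHL3, an adaptor for WNK kinases, rose by 1.31 ± 0.24 (adjusted p = 0.00296). The sizes for RHOBTB1 and KLHL3 depended on the processing. Among the alternatives the smallest differences were -0.37 for RHOBTB1, 0.26 for KLHL3 and -0.60 for RHOBTB3. In SH-SY5Y cells none of the 20 passed, against 5 at an unadjusted p under 0.05. SPOP itself, the closest relative of SPOPL, differed by -0.04 ± 0.09 and 0.00 ± 0.09, and its arrays overlapped in both lines.

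Among 24 MARVEL-domain and related membrane proteins, SYNGR1, a synaptic vesicle protein, fell in SH-SY5Y cells (limma, adjusted p = 0.0164) to arrays that did not detect it, by at least 1.83-fold after the RMA background correction but with a difference of -0.20 without it. CMTM3 rose by 0.78 ± 0.08 in SH-EP2 cells (adjusted p = 1.05e-05), with 0.26 as the smallest difference among the alternatives. None of the 15 genes around PDZK1, among them SCARB1 and the scaffold gene SLC9A3R1, passed in either line with limma, and none had an unadjusted p under 0.05. However, 7 of these 15 were detected on no array, so that a change in them could hardly be read. Of 31 genes of the presynaptic active zone and vesicle release, STX1A, a syntaxin of vesicle fusion, rose by 0.80 ± 0.21 in SH-EP2 cells (adjusted p = 0.0406). BSN, which codes for bassoon, the partner of piccolo, did not pass, with 0.47 ± 0.39 in SH-SY5Y and -0.35 ± 0.39 in SH-EP2 cells, where no array detected it.

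Of 12 arginine methyltransferase genes and cofactors, PRMT3 rose by 0.54 ± 0.10 in SH-SY5Y cells (limma, adjusted p = 0.0062), and PRMT1, the most abundant methyltransferase in many cells, did not pass, with 0.12 ± 0.08 and 0.22 ± 0.08. Among 11 genes of metaxins and the outer mitochondrial membrane, VDAC1, a channel protein of that membrane, rose by 0.29 ± 0.07 in SH-SY5Y cells (adjusted p = 0.0296). Of 15 nuclear envelope genes, UNC84B (now SUN2), which links the nucleus to the cytoskeleton, fell in both lines, by 0.41 ± 0.09 (adjusted p = 0.0181) and 0.51 ± 0.09 (adjusted p = 0.00218). POM121C, a pore membrane gene, fell by 0.42 ± 0.09 in SH-SY5Y cells (adjusted p = 0.0121), a value that is uncertain because it has near-identical copies. Of the calls named from these lists, STX1A and VDAC1 did not pass under 11 of 18 alternatives each, SYNGR1 under 8, MTHFD1L under 6 and UNC84B in SH-SY5Y cells under 5, and each other one failed under 1 to 4.

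The neighbours of the 9 genes on the chromosomes were tested in the same fit, which asks whether a decrease extended over a region. The nearest 2 genes with a probe on each side gave 36 array symbols, of which 8 were detected on no array. For PRMT2 such genes were found only before it and not after it. RNF115 near PDZK1 and PNISR near C6orf168 each stood under 2 of the symbols. With limma, no neighbour was lower at an adjusted p under 0.05 in either line, and 8 in SH-SY5Y and 4 in SH-EP2 cells had an unadjusted p under 0.05 in either direction. SEMA3A, a guidance cue of axons and neural crest cells near PCLO, alone among the neighbours passed, and it rose. It read 7.92 and 7.83 in SH-SY5Y control and 8.62 and 8.37 in TRPM7 shRNA cells, and 6.39 and 6.46 against 7.98 and 7.71 in SH-EP2 cells. The increases were 0.62 ± 0.14 (adjusted p = 0.024) and 1.42 ± 0.14 (adjusted p = 4.68e-06), opposite to PCLO in both lines.

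The probes whose pattern was most like each of the 9 genes were found by Pearson's r over the 8 arrays, after the mean of its line was subtracted from each value. The arrays share the 4 groups and the selection of the 9 genes on them, so that r is a description and was given no test. The pattern of MYADM was closest to PHGDH (r = 0.997) and PJA1, a ubiquitin ligase (r = 0.996), with PJA1 differing by -1.02 and -1.01 in SH-SY5Y and SH-EP2 cells. SPOPL was closest to TSC22D3, the glucocorticoid-induced leucine zipper (r = 0.994, differences -0.82 and -0.87), and CACNA2D2, a calcium channel subunit (r = 0.994, -0.69 and -0.89). SFXN1 was closest to ANKRD13A (r = 0.996, -0.38 and -0.39) and ZNF35 (r = 0.992, -0.87 and -0.72).

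PCLO was closest to ANG, the ribonuclease angiogenin (r = 0.999, -0.32 and -0.58), and YIPF3 (r = 0.989, -0.12 and -0.23), both with far smaller differences than its own. C11orf24 was closest to C14orf149 (r = 0.991, -1.55 and -0.91) and to ITGB5, an integrin of cell adhesion (r = 0.985, -1.02 and -0.56). TMEM18 was closest to JAK1, a kinase of cytokine receptors (r = 0.995, -0.31 and -0.35), and KLB (r = 0.993, -0.64 and -0.70). For PDZK1 these were FAM164A and TBC1D8B, for PRMT2 MPST, and for C6orf168 RRBP1 and ALKBH5, with r from 0.982 to 0.997.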

How the data were processed

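With GenomeStudio 2011.1, the authors obtained a bead signal and a detection p-value for each of 47322 probes, and they deposited the signals as intensities on a linear scale that had not been normalized. A deposited detection p-value under 0.05 was taken as detection. The authors' own normalization was Robust-Multi-Array, and the study's methods do not name its test.

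Here the background of the 8 arrays was subtracted by the RMA model, log2 was taken, and the log2 values were quantile normalized, with dim probes kept. A model of 4 groups was fitted with limma 3.58.1 in R 4.3.3 (lmFit, eBayes with an intensity trend, which uses statmod 1.5.0). Tests were two-sided, adjusted by Benjamini-Hochberg over all probes, with a threshold of 0.05. The labels' cell line and shRNA gave the groups, and the precision is limited by having 2 arrays per group.

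The 9 genes and all lists of related genes, motifs and comparisons were chosen with earlier results of these data known. For other genes the probe that was brightest on average stands for the gene, while every probe of the 9 genes is given. Genes named from a list are up to 3 per direction and line among those that passed, with relatives of the 9 genes added after their values were seen. A fold against a group in which both arrays missed a probe is a bound, set on each of those arrays by the dimmest signal that counted as detected, or by the probe itself where it was brighter. The files give a symbol for 44052 probes. Of the 31426 symbols, 17761 are current in RefSeq (GRCh38.p14) and 3307 are older names of 1 gene. Sequences of the probes and of the shRNA were not used here.

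The replicate numbers were checked for pairing. The replicate differences of control and TRPM7 shRNA arrays correlated with r = -0.111 in SH-SY5Y and -0.00442 in SH-EP2 cells over 14577 probes, so that the numbers were not taken to pair the arrays. Alternatives changed the background correction (neqc with offset 16, normexp with offset 50, or none, with a floor of 1), scaled arrays by their medians, kept only probes that 2 or more arrays detected, fitted eBayes with no trend, fitted each line alone, blocked on the replicate number, averaged the probes of a gene, or left out single arrays.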

Additional observations from a re-analysis of the deposited data

Results flagged for a closer look

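For 5 genes related to the 9, the difference between TRPM7 shRNA and control was not the same in the 2 lines by the interaction term of the limma fit (adjusted p under 0.05 over all probes). Given as the SH-EP2 difference minus the SH-SY5Y difference on the log2 scale, these were PSAT1 with -1.09 (adjusted p = 0.000111) and MTHFD2 with -0.77 (adjusted p = 0.00523), both enzymes around serine and folate, and RHOBTB3 with -0.59 (adjusted p = 0.0073). CMTM3 with 0.70 (adjusted p = 0.0024) and POM121C with 0.60 (adjusted p = 0.0146) differed in the other direction. The smallest values among the alternatives were -0.52 for PSAT1, -0.39 for MTHFD2, -0.49 for RHOBTB3, 0.28 for CMTM3 and 0.48 for POM121C. The POM121C difference did not pass under 7 of 17 alternatives, and the other 4 under 2 to 4 each. PSAT1 read 10.12 and 10.12 against 8.85 and 8.80 in SH-EP2 cells, and 9.27 and 9.24 against 9.10 and 8.99 in SH-SY5Y cells. CMTM3 read 9.88 and 9.81 against 10.63 and 10.62 in SH-EP2 cells, and 10.15 and 10.12 against 10.23 and 10.20 in SH-SY5Y cells.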

How the results depend on the processing

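The differences of the 13 detected probes of the 9 genes kept their sign in both lines under each alternative, and 6 of the 9 genes differed between control lines under each one except eBayes without an intensity trend and averaging of the probes per gene (4 each). Counts moved more. Probes lower in both lines numbered 157, with 71 under median scaling, 1 without an intensity trend and 78 to 152 with an array left out. The 9 genes each had a probe among the 157, against 6 with neqc, 7 under median scaling and 1 without an intensity trend. Nothing is read from these counts of the 9 genes, since the genes were chosen from the same contrast. Related genes called in SH-SY5Y cells numbered 6, with 0 without an intensity trend, 3 with each line alone and 2 to 7 with an array left out (2 without control replicate 2, 3 without TRPM7 shRNA replicate 1). In SH-EP2 cells they numbered 11, with 1 without an intensity trend, 18 with each line alone, 6 by the mean over probes, and 6 to 13 with an array left out (6 without TRPM7 shRNA replicate 1). The differences between lines, to which the alternatives were applied after the data were seen, numbered 5, with 3 under median scaling, 0 without an intensity trend, 2 by the mean over probes, 8 with a crossed block and 2 to 7 with an array left out (3 without SH-EP2 control replicate 1, 2 without SH-EP2 TRPM7 shRNA replicate 2). The 1 neighbour called in SH-SY5Y cells became 2 with neqc, normexp, no background correction, the detected probes and the crossed block, and 0 without an intensity trend, with 0 to 2 with an array left out. The neighbour called in SH-EP2 cells became 0 without an intensity trend and stayed 1 with any array left out. The cause of these shifts was not tested.

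With a replicate block in each line, 128 probes were lower in both lines, of which 126 were among the 157, and the block left the counts of related genes at 5 in SH-SY5Y and 10 in SH-EP2 cells. A crossed block in SH-SY5Y cells, added after the data were seen, gave 213. For dim probes, among them those of PDZK1, PCLO in SH-SY5Y cells, C6orf168, TMEM18 and the PRMT2 probe at rank 12, the size of the difference depends on how the background is subtracted.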
